A study of Homo sapiens with 16 samples.

Results

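The E2F transcription factors E2F1 to E2F8 and the pocket proteins RB1 and RBL1 (p107) were followed through HGF treatment of cells expressing wt MET and cells expressing MET∆14. These 10 genes were taken by symbol from the 42351 genes of the count table, and all 10 passed the filter on low counts. E2F factors bind promoters of genes needed for DNA replication and cell division. E2F1, E2F2 and E2F3 are known mainly as activators that the retinoblastoma protein RB1 holds in check, whereas E2F4 and E2F5 act mainly as repressors together with RBL1 and RBL2 (p130) in resting cells. Cyclin-dependent kinases phosphorylate the pocket proteins late in G1 and release the activators. E2F6 represses without pocket proteins, within a Polycomb complex, and E2F7 and E2F8 are repressors that bind without a DP partner and limit E2F1.

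Polyadenylated RNA was sequenced from 2 lung cancer cell lines, each after 0, 3, 6 and 12 h of HGF, with 2 libraries per condition and 16 in all. NCI-H596, an adenosquamous carcinoma line, expresses MET∆14, the receptor whose transcript skips exon 14, and A549, an adenocarcinoma line in the labels, expresses wt MET. The paper's text abbreviates another line as WT, so the line name A549 rests on the labels. All groups, 0 h included, were deprived of serum beforehand, for a length of time that the labels and the methods give differently, and the HGF dose of these samples was not given in the sources used here. Each MET status was 1 cell line, so the line and the MET status cannot be told apart. Without untreated samples at 3, 6 and 12 h, the effect of HGF and that of further time without serum cannot be told apart either. The study called its replicates biological duplicates. In bulk RNA, a change in the share of cycling cells and a change in RNA per cell cannot be told apart.

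The counts of a library summed to between 10158590 and 23909304 reads, and 15067 genes were tested. Replicates differed most for NCI-H596 at 12 h, with a chi-square per degree of freedom of 34.5, and next for A549 at 0 h, with 9.95. The other 6 groups had values from 2.79 to 4.55. CDKN2A, which lies in a deletion known in A549, had 0 counts in all 8 libraries labelled A549, where 3 counts would be 0.137 to 0.227 CPM (counts scaled to library size), and group means of 111 to 154 CPM in NCI-H596. MTAP, from the same region, had group means of 0.652 to 1.27 CPM in A549 and 58.6 to 136 CPM in NCI-H596. The 4 squamous markers TP63, KRT5, KRT6A and KRT14 summed to 0.538 to 2.83 CPM per library in A549 and to 2285 to 3264 CPM in NCI-H596, the adenosquamous line. Of 7 lung epithelial markers, KRT8 averaged 726 CPM in A549 and 743 in NCI-H596, and KRT18 1417 and 517. EPCAM averaged 1.46 CPM in A549 and 29.2 in NCI-H596, and CDH1 4.94 and 100. NKX2-1 was lower in NCI-H596, with 0.56 CPM in A549 and 0.00684 in NCI-H596, as was NAPSA with 0.559 and 0.112. SFTPB, a surfactant gene, had 0 counts in all 16 libraries. The 6 fibroblast, leukocyte and endothelial markers summed to 11.4 to 19.5 CPM per library in A549 and to 188 to 347 CPM in NCI-H596. Of the fibroblast markers, COL3A1 averaged 0.266 CPM in A549 and 248 in NCI-H596, and COL1A1 13.4 and 24.2. PDGFRB went the other way, with 0.345 CPM in A549 and 0.0553 in NCI-H596. In NCI-H596 the leukocyte marker PTPRC averaged 0.0266 CPM, and the endothelial markers PECAM1 and CDH5 averaged 1.07 and 0.0852 CPM. The part of these marker differences in the results below was not tested.

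Promoter sequence is shown for the members whose windows hold a string of the E2F consensus. RefSeq windows on GRCh38.p14, each 250 bases before to 50 bases after an annotated start, matched 8 of the 10 members by symbol, the others being E2F5 and E2F8. Searched on both strands, at least 1 of the 4 strings TTTCCCGC, TTTCGCGC, TTTGCCGC and TTTGGCGC stood in 1164 of 35116 windows, or 3.31%, and in windows of E2F1, E2F2, E2F3 and RBL1. The 250 bases before the start are printed from 5′ to 3′ on the strand of the gene, with the strings in capitals and strings of the opposite strand seen as their reverse complement.

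E2F1, chr20:33686386-33686635, minus strand: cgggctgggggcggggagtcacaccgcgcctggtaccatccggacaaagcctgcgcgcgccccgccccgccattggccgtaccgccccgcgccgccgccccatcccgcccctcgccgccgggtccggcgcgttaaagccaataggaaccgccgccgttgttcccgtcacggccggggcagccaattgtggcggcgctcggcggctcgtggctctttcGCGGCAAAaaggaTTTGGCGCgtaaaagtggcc
E2F2, chr1:23531234-23531483, minus strand: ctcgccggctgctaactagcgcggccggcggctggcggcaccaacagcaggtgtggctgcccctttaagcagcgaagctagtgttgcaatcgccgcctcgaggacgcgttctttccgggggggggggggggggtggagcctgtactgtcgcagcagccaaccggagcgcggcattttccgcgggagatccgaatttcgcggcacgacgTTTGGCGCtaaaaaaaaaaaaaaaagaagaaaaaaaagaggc
E2F3, chr6:20401629-20401878, plus strand: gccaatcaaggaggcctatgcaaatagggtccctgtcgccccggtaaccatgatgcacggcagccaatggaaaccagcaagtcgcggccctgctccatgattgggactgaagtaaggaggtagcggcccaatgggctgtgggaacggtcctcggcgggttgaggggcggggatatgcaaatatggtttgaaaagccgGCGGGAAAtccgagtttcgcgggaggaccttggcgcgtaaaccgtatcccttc
RBL1, chr20:37095998-37096247, minus strand: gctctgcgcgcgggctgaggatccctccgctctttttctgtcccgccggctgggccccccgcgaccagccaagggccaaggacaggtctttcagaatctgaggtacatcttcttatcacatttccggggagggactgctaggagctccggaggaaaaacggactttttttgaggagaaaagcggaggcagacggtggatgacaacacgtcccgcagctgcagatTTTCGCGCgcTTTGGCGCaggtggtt

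Counted to the first base of each string from the annotated start, the E2F1 window held TTTGCCGC on the opposite strand at -33 and TTTGGCGC at -20. In RBL1, TTTCGCGC at -26 and TTTGGCGC at -16 lay side by side, and E2F2 held TTTGGCGC at -42. The E2F3 window held TTTCCCGC on the opposite strand at -53 and TTTGAA, the core of the CHR element of late cell cycle genes, at -65. TTTGAA stood in 15.2% of all windows. None of the strings stood in the windows found for E2F4, E2F6, E2F7, the second E2F3 start or RB1, whose window lies at an internal start. A match describes these letters only.

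Before HGF, E2F4 was the most abundant E2F transcript in A549 and E2F1 was the most abundant in NCI-H596. Levels are compared between genes as CPM per kilobase of the longest annotated transcript, as mean ± SD of 2 libraries. In A549 at 0 h, E2F4 was at 47.4 ± 0.386, E2F6 at 23.9 ± 1.68, E2F3 at 9.42 ± 1.11 and E2F7 at 6.06 ± 1.33 CPM per kilobase. E2F5 followed with 3.54 ± 0.409, while E2F1 with 0.704 ± 0.12, E2F8 with 0.25 ± 0.0778 and E2F2 with 0.234 ± 0.0351 were lowest, and E2F8 and E2F2 overlapped. Among the pocket proteins of A549, RB1 stood at 14.3 ± 0.837 and RBL1 at 1.41 ± 0.201 CPM per kilobase. In NCI-H596 at 0 h, E2F1 was at 27.7 ± 1.93, E2F4 at 20.0 ± 0.664, E2F3 at 9.62 ± 0.0327, E2F7 at 9.08 ± 0.416 and E2F6 at 6.08 ± 0.26 CPM per kilobase. E2F2 with 3.18 ± 0.029, E2F8 with 2.14 ± 0.0648 and E2F5 with 0.92 ± 0.204 came last. There, RBL1 at 9.72 ± 0.107 exceeded RB1 at 2.10 ± 0.125 CPM per kilobase.

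**Figure D1:**
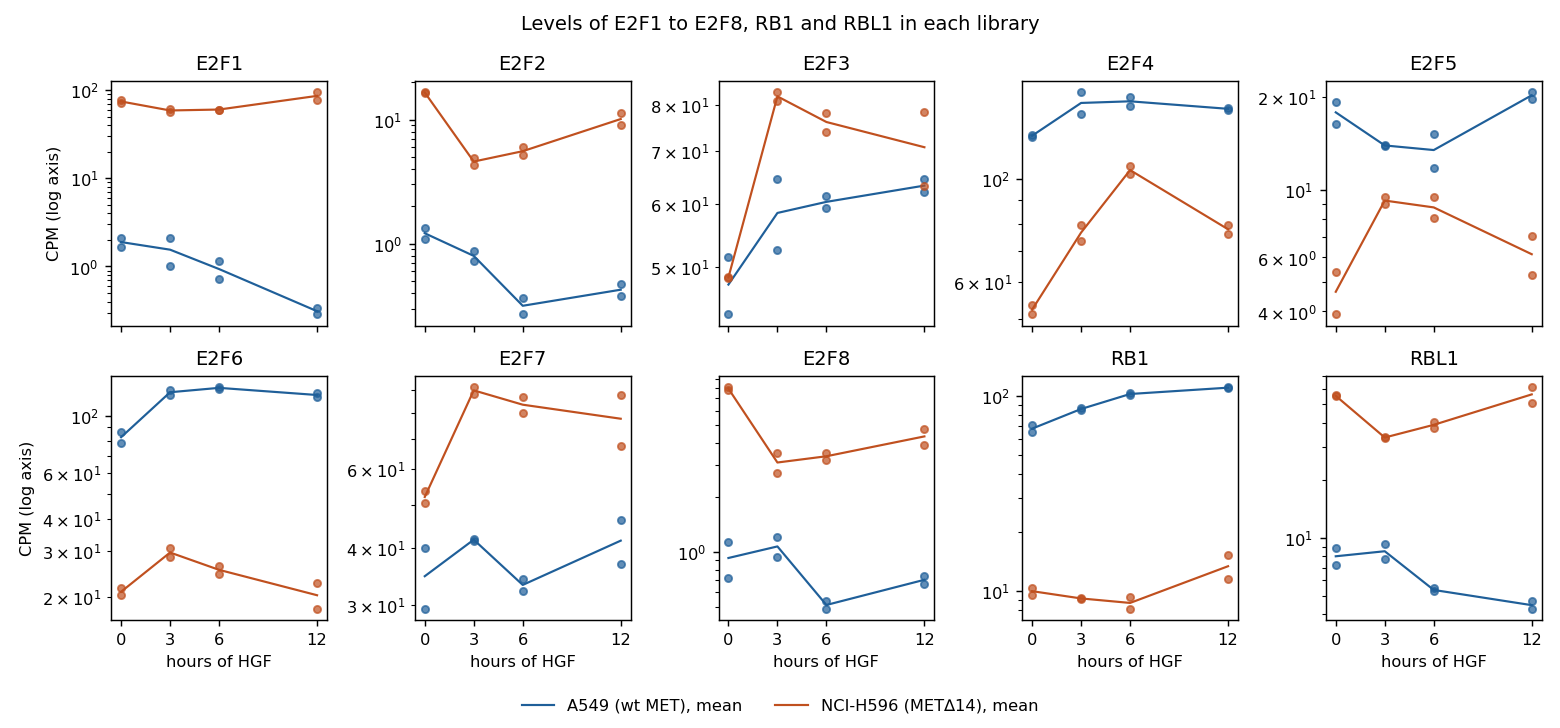
CPM of each of the 10 genes (log axis, scaled separately in each panel) against hours of HGF; points are the 2 libraries of a group and lines join the group means of A549 (blue) and NCI-H596 (orange). E2F1 lay between 0.286 and 2.12 CPM in A549 and between 57.2 and 95.0 CPM in NCI-H596, while RB1 and E2F6 were higher in A549 at every time.

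The lines differed in 9 of the 10 members at 0 h, where 80.2% of all genes tested differed by edgeR's quasi-likelihood F test, adjusted by Benjamini-Hochberg. E2F1 showed the largest difference. Its levels were 1.66 and 2.12 CPM in the A549 libraries and 70.8 and 78.1 CPM in NCI-H596, a log2 difference of 5.29 ± 0.19 (SE; adjusted p = 1.73e-12). E2F2 had 1.09 and 1.34 CPM in A549 and 16.4 and 16.6 CPM in NCI-H596 (log2 difference 3.76 ± 0.21). The late-cycle repressor E2F8 was higher in NCI-H596 by 3.08 ± 0.26, RBL1 by 2.78 ± 0.13 and E2F7 by 0.58 ± 0.15 on the log2 scale. In the opposite direction, RB1 had 70.8 and 65.2 CPM in A549 and 10.4 and 9.59 CPM in NCI-H596, a log2 difference of -2.77 ± 0.11 (adjusted p = 6.81e-12). E2F6 (-1.97 ± 0.10), E2F5 (-1.93 ± 0.18) and E2F4 (-1.25 ± 0.08) were also lower in NCI-H596. E2F3 was not called, with 43.5 and 51.4 CPM in A549 and 48.6 and 48.3 CPM in NCI-H596 (0.03 ± 0.12, adjusted p = 0.821), and its sign turned (-0.087) without replicate 1 of A549 at 0 h. Without that library the E2F7 difference was 0.38. Exons of E2F5 overlap genes of the opposite strand over 18.8% of their length, those of RBL1 over 3.6% and those of E2F8 over 0.2%, and since the use of strand in the counting was not given in the sources used here, reads of these genes may be mixed with those of their partners.

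As shares of the summed level of E2F1 to E2F8 per kilobase, the activators E2F1 to E2F3 held 11.3% ± 0.849 (SD, n = 2) in A549 and 51.4% ± 1.01 in NCI-H596 at 0 h. E2F4 and E2F5 held 55.7% ± 2.66 in A549 and 26.6% ± 1.33 in NCI-H596, and E2F6 held 26.1% ± 0.596 against 7.72% ± 0.114. During HGF the activator share stayed between 10.8% and 11.3% in A549. In NCI-H596 it was 41.0% ± 0.121 at 3 h, 37.4% ± 0.131 at 6 h and 48.1% ± 2.56 at 12 h, whereas the share of E2F4 and E2F5 was 40.4% ± 0.561 at 6 h. Of the summed pocket proteins, RB1 held 65.3% ± 2.22, 74.4% ± 0.0901, 80.7% ± 0.128 and 83.9% ± 0.332 at 0, 3, 6 and 12 h in A549, and 9.6% to 15% in NCI-H596. There RBL1 held 44.5% ± 0.702 at 0 h, 38.7% ± 0.892 at 3 h and 53.0% ± 1.02 at 12 h. The order of these shares rests on the gene lengths used. With the union of all annotated exons as length, E2F1 to E2F3 held 42.8% and E2F4 and E2F5 34.3% in NCI-H596 at 6 h, the reverse of the order above. In the other groups those lengths did not turn that order. Among the pocket proteins of NCI-H596 at 0 h, RBL2 held 45.9% against the 44.5% of RBL1. With the union of exons RBL2 held 41.9% and RBL1 49.8%, again the reverse. Shares were given no test.

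**Figure D2:**
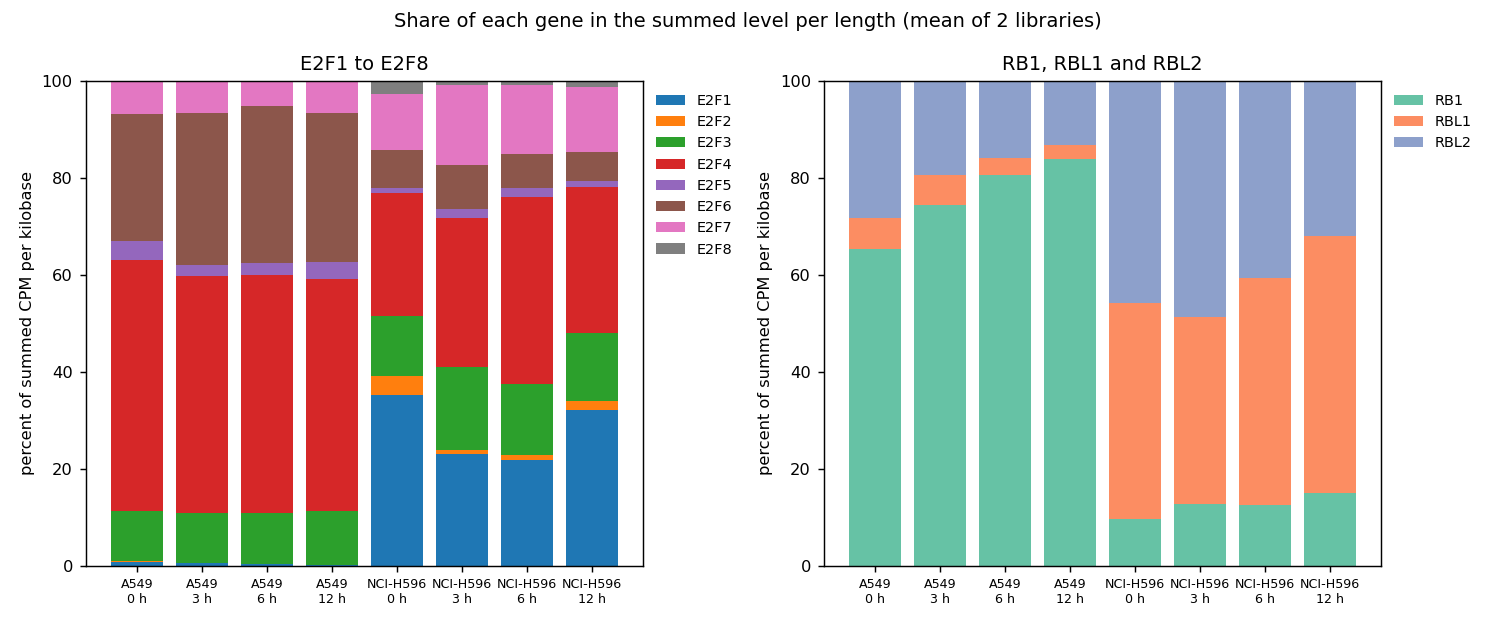
Share of each gene, in percent of the summed CPM per kilobase (mean of 2 libraries), among E2F1 to E2F8 (left) and among RB1, RBL1 and RBL2 (right) in the 8 groups; all bars start at 0. E2F1 takes 35.2% of the E2F bar of NCI-H596 at 0 h and 21.7% at 6 h, and 0.766% of that of A549 at 0 h.

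Each time was then compared with 0 h of its line, and these comparisons share the 0 h libraries. Whether the 2 libraries of a group lay apart from those at 0 h is given as description only. The share of all genes whose groups lay apart is not reported here. In A549, 3 members were called at 3 h, 7 at 6 h and 6 at 12 h, where 17.4%, 34.2% and 35.1% of all genes tested were called. In NCI-H596, 8, 8 and 6 members were called, where 31.7%, 44.1% and 38.3% of all genes were. The test over all times called 7 members in A549 (40.3% of genes) and 10 in NCI-H596 (54.1%). Over the 10 members the median log2 fold change lay between -0.23 and 0.21 in A549 and between 0.05 and 0.29 in NCI-H596, since rises and falls stood side by side, and over all genes it lay between -0.05 and 0.00.

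Among the activators, E2F1 and E2F2 fell in A549. E2F1 there had 1.66 and 2.12 CPM at 0 h, 1.0 and 2.1 at 3 h, 0.726 and 1.14 at 6 h, and 0.286 and 0.336 at 12 h. All libraries at 6 and 12 h lay below those at 0 h, and the counts behind these values were 5 to 30 reads. The log2 fold change of E2F1 in A549 was -1.03 ± 0.35 at 6 h (adjusted p = 0.0337) and -2.60 ± 0.43 at 12 h (adjusted p = 0.00033). The call at 6 h was lost without either 0 h library or without replicate 1 at 6 h (adjusted p = 0.0573, 0.197 and 0.255), and when A549 was fitted alone (0.0601). At 3 h its value of -0.33 was not called and turned to 0.18 without replicate 1 at 3 h. In NCI-H596, E2F1 had 70.8 and 78.1 CPM at 0 h, 57.2 and 60.6 at 3 h, 60.3 and 60.3 at 6 h, and 95.0 and 77.3 at 12 h. The libraries at 3 and 6 h were below those at 0 h, whereas the 12 h libraries overlapped with 0 h. No single time was called against 0 h (-0.34, -0.31 and 0.21, adjusted p = 0.0575, 0.0656 and 0.206), but the test over all times was (adjusted p = 0.00511), as was the rise from 6 to 12 h (0.52 ± 0.13, adjusted p = 0.012). Without either 12 h library of NCI-H596 or either 3 h library of A549 the values at 3 and 6 h were called (adjusted p from 0.005 to 0.0358), and without either 6 h library the rise was not (0.0689 and 0.094). Without replicate 2 at 12 h the value against 0 h was called (0.34, adjusted p = 0.0124).

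E2F2, which shares the activator role, fell in both lines. In NCI-H596 it had 16.4 and 16.6 CPM at 0 h, 4.32 and 4.87 at 3 h, 5.99 and 5.14 at 6 h, and 11.2 and 8.99 at 12 h. The fall was 3.58-fold at 3 h (log2 -1.84 ± 0.17, adjusted p = 1.04e-06) and 1.62-fold at 12 h (-0.70 ± 0.16), with a called rise of 0.88 ± 0.17 from 6 to 12 h that was lost without replicate 2 at 6 h (0.77, adjusted p = 0.0549). In A549, E2F2 had 1.09 and 1.34 CPM at 0 h, 0.868 and 0.727 at 3 h, 0.363 and 0.269 at 6 h, and 0.381 and 0.471 at 12 h, with at most 19 reads in a library. Every A549 library with HGF lay below those at 0 h, and the calls were at 6 h (-1.91 ± 0.37) and 12 h (-1.52 ± 0.34), the latter lost without replicate 1 at 12 h (adjusted p = 0.0546). E2F3 rose instead. In NCI-H596 it went from 48.6 and 48.3 CPM at 0 h to 81.1 and 83.1 at 3 h, 74.1 and 78.3 at 6 h, and 78.4 and 63.2 at 12 h (log2 0.76 ± 0.11, 0.65 ± 0.11 and 0.55 ± 0.11, all called). In A549 its rise was called at 6 h (0.35 ± 0.12, adjusted p = 0.0313) and 12 h (0.42 ± 0.12, adjusted p = 0.0115). Both A549 calls of E2F3 were lost without replicate 1 at 0 h (adjusted p = 0.251 and 0.129), the one at 6 h also without either 6 h library (0.0727 and 0.119) and the one at 12 h without replicate 1 at 12 h (0.0857). Its call over all times in A549 (adjusted p = 0.0399) was lost without any 1 of 11 libraries (0.0535 to 0.345). Its A549 value at 3 h (0.30, adjusted p = 0.0958) was called without replicate 2 at 0 h (0.45) or replicate 1 at 3 h (0.47), and without either 12 h library of NCI-H596 (0.30 and 0.32).

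**Figure D3:**
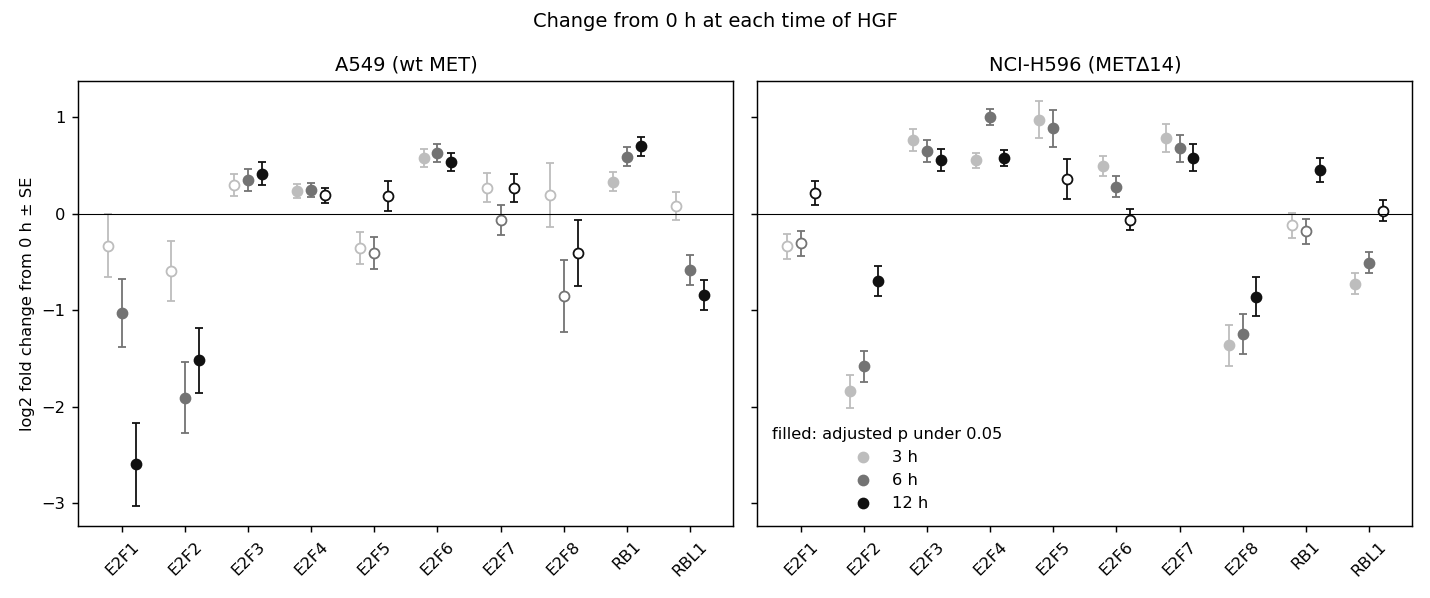
Log2 fold change from 0 h ± SE of each member at 3, 6 and 12 h (light to dark) in A549 (left) and NCI-H596 (right); filled points had an adjusted p under 0.05. E2F1 at 12 h in A549 (-2.60) is the lowest point, and E2F4 at 6 h in NCI-H596 (1.0) is the highest.

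Of the repressors that work with pocket proteins, E2F4 rose in NCI-H596 at every time and was highest at 6 h. It had 53.5 and 51.1 CPM at 0 h, 73.5 and 79.8 at 3 h, 102 and 107 at 6 h, and 79.6 and 76.3 at 12 h. No library with HGF overlapped with 0 h, and the 6 h libraries stood above all others (1.0 ± 0.08, adjusted p = 1.5e-07). The step from 3 to 6 h (0.45 ± 0.08) and the fall from 6 to 12 h (-0.42 ± 0.08) were both called, the former not without replicate 1 at 3 h (0.38, adjusted p = 0.0511). In A549, E2F4 had 123 and 125 CPM at 0 h and 138 to 154 CPM afterwards, with rises of 0.24 ± 0.08 at 3 h (adjusted p = 0.0475) and 0.25 ± 0.08 at 6 h (adjusted p = 0.0221), and 0.19 at 12 h (adjusted p = 0.0644). The test over all times did not call E2F4 in A549 (adjusted p = 0.0529). Its 12 h value was called by DESeq2 (adjusted p = 0.0308) and with the size factors of DESeq2 in edgeR (0.0438). It was also called with at least 10 counts in every library (0.029) and when A549 was fitted alone (0.0196). The small A549 calls at 3 and 6 h depended on the libraries used. The one at 3 h was lost without either 0 h library, replicate 1 at 3 h or either 12 h library (adjusted p from 0.0502 to 0.257) and with the replicate number as a block (0.0619), and the one at 6 h without replicate 1 at 0 h or at 6 h (0.0853 and 0.104). The value at 12 h was called without either 12 h library of NCI-H596 (0.19 in each, adjusted p = 0.0212 and 0.0267).

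E2F5 rose in NCI-H596 at 3 and 6 h. In NCI-H596 it had 3.91 and 5.36 CPM at 0 h, 8.96 and 9.45 at 3 h, 9.43 and 8.05 at 6 h, and 5.25 and 7.05 at 12 h. The groups at 3 and 6 h did not overlap with 0 h (0.97 ± 0.19 and 0.88 ± 0.19, both called), whereas the 12 h group did (0.36 ± 0.20, adjusted p = 0.179). In A549 it had 19.3 and 16.4 CPM at 0 h, 14.0 and 13.9 at 3 h, 15.1 and 11.8 at 6 h, and 19.8 and 20.8 at 12 h. No time was called against 0 h (-0.36, -0.41 and 0.18), but the rise from 6 to 12 h was (0.59 ± 0.16, adjusted p = 0.027), as was the test over all times (adjusted p = 0.0192). The call of that rise was lost without replicate 2 at 6 h (0.40, adjusted p = 0.31), without either 12 h library (0.129 and 0.168) and without any 1 of the 3 h libraries of both lines (0.0509 to 0.0532). The call over all times was lost without any 1 of the 3 h or 12 h libraries of A549 or replicate 2 at 6 h (0.0595 to 0.108), and the value at 6 h was called without either 12 h library of NCI-H596 (0.0251 and 0.033).

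E2F6, the Polycomb-linked repressor, rose in A549 at all times, from 78.4 and 86.6 CPM at 0 h to 120 and 126 at 3 h, 127 and 129 at 6 h, and 122 and 118 at 12 h. No A549 library with HGF overlapped with 0 h (0.57 ± 0.09, 0.63 ± 0.09 and 0.54 ± 0.09), and none of the 3 calls was lost without any 1 library. In NCI-H596 it had 20.3 and 21.6 CPM at 0 h, 30.9 and 28.5 at 3 h, 24.6 and 26.3 at 6 h, and 18.0 and 22.7 at 12 h. The rise was called at 3 h (0.50 ± 0.11, adjusted p = 0.00215) and at 6 h (0.28 ± 0.11, adjusted p = 0.0411), and the value at 12 h was -0.06, or 0.11 without replicate 1 at 12 h. Without any 1 of 12 of the 16 libraries the 6 h call was lost (adjusted p from 0.0636 to 0.252), the 4 others being the 0 h libraries of A549 and the 12 h libraries of NCI-H596. The fall from 6 to 12 h (-0.34 ± 0.11, adjusted p = 0.0381) was lost without any 1 of 13 libraries, being -0.18 without replicate 1 at 12 h. Processed copies of E2F6 drew few reads, at most 29 in a library for E2F6P1.

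The atypical repressors E2F7 and E2F8 moved in opposite directions in NCI-H596. E2F7 rose from 50.3 and 53.7 CPM at 0 h to 88.1 and 91.2 at 3 h, 86.6 and 80.1 at 6 h, and 87.7 and 67.4 at 12 h. All libraries with HGF were above those at 0 h (0.79 ± 0.14, 0.68 ± 0.14 and 0.58 ± 0.14, all called), and the 12 h value was 0.37 without replicate 1 at 12 h. E2F8 fell from 7.76 and 8.10 CPM at 0 h to 3.50 and 2.72 at 3 h, 3.52 and 3.21 at 6 h, and 4.76 and 3.89 at 12 h. Again the groups did not overlap (-1.36 ± 0.21, -1.24 ± 0.21 and -0.86 ± 0.21, all called). In A549, neither gene was called at a single time or over all times. E2F7 was called there over all times without a filter (adjusted p = 0.0205), and without replicate 2 of A549 at 0 h or replicate 1 of NCI-H596 at 12 h. E2F7 there had 29.3 and 40.1 CPM at 0 h and 32.2 to 46.2 CPM with HGF (0.27, -0.06 and 0.27), and without replicate 2 at 0 h its values were 0.54 at 3 h and 0.51 at 12 h, both called (adjusted p = 0.0378 and 0.0295), and 0.21 at 6 h. E2F8 in A549 had 0.723 and 1.13 CPM at 0 h and 0.484 to 1.21 CPM with HGF, from 8 to 16 reads in a library. Its log2 fold changes were 0.19 ± 0.33, -0.86 ± 0.37 and -0.41 ± 0.34, and the first was -0.087 without replicate 1 at 0 h.

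RB1 rose in A549 with time, from 70.8 and 65.2 CPM at 0 h to 84.3 and 87.1 at 3 h, 101 and 104 at 6 h, and 109 and 111 at 12 h. The 4 groups did not overlap, and the log2 fold changes were 0.33 ± 0.10 (adjusted p = 0.0302), 0.59 ± 0.10 and 0.70 ± 0.10. The first of these calls was lost without either 0 h library or either 3 h library (adjusted p from 0.0586 to 0.127). In NCI-H596, RB1 had 10.4 and 9.59 CPM at 0 h, 9.20 and 9.17 at 3 h, 8.08 and 9.34 at 6 h, and 15.3 and 11.6 at 12 h. The 12 h libraries lay above the rest (0.45 ± 0.13, adjusted p = 0.0106, and 0.63 ± 0.13 from 6 h), but that rests on replicate 1, without which the values were 0.22 (adjusted p = 0.262) and 0.39 (0.105), and the test over all times was lost as well (0.118). The 12 h call was also lost without replicate 2 at 0 h (0.38, adjusted p = 0.0916).

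RBL1, itself known as a target of E2F factors, fell at 3 and 6 h in NCI-H596 and at 6 and 12 h in A549. In NCI-H596 it had 54.8 and 55.7 CPM at 0 h, 33.1 and 33.8 at 3 h, 40.3 and 37.7 at 6 h, and 61.5 and 51.0 at 12 h. The fall was largest at 3 h (-0.72 ± 0.11, adjusted p = 0.000149), and the 12 h libraries lay on both sides of 0 h (0.03 ± 0.11, or -0.12 without replicate 1 at 12 h). Its rise from 6 to 12 h (0.54 ± 0.11, adjusted p = 0.00409) was not called without replicate 2 at 6 h (0.49, adjusted p = 0.0619). In A549 it had 8.83 and 7.21 CPM at 0 h, 7.75 and 9.30 at 3 h, 5.45 and 5.25 at 6 h, and 4.67 and 4.24 at 12 h. There the libraries at 3 h overlapped with 0 h (0.08, or about -0.03 without replicate 2 at 0 h or at 3 h), and those at 6 and 12 h lay below (-0.58 ± 0.16 and -0.84 ± 0.16). The 6 h call was lost without replicate 1 at 0 h (-0.43, adjusted p = 0.11) or either 6 h library (0.0509 and 0.0664). The step from 3 to 6 h (-0.66 ± 0.15, adjusted p = 0.0311) was lost without any 1 of the 3 h or 6 h libraries of A549 (0.0651 to 0.227).

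Between neighbouring times, 1 member was called from 3 to 6 h in A549 (RBL1, with 3.1% of all genes called) and 1 from 6 to 12 h (E2F5, 11.6%). In NCI-H596, 1 was called from 3 to 6 h (E2F4, 9.77%) and 6 from 6 to 12 h (18.6%). The latter were the rises of E2F1, E2F2, RB1 and RBL1 and the falls of E2F4 and E2F6 given above. Without replicate 2 at 6 h, 2 of these 6 were called, with 5.52% of all genes.

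The direct test of a different response in the lines called 9 of the 10 members over the 3 times, where 37.6% of all genes tested were called. Differences are NCI-H596 minus A549 on the log2 scale. At 3 h, 4 members were called (17.4% of genes), namely RBL1 (-0.80 ± 0.19), E2F8 (-1.56 ± 0.40), E2F2 (-1.25 ± 0.37) and E2F5 (1.33 ± 0.25). At 6 h (30.2% of genes), E2F4 (0.75 ± 0.11), E2F5 (1.29 ± 0.25) and E2F7 (0.74 ± 0.21) were higher in NCI-H596 relative to 0 h, and RB1 was lower (-0.77 ± 0.16). At 12 h (24.0% of genes), E2F1 differed by 2.81 ± 0.45 (adjusted p = 0.000401), RBL1 by 0.87 ± 0.19, E2F4 by 0.38 ± 0.11 and E2F6 by -0.60 ± 0.14. E2F3, whose rises were called in both lines, was not called in this test (adjusted p = 0.124), though it was without either 12 h library of NCI-H596 (0.00755 and 0.0396). RBL1 had the smallest adjusted p over all times (8.6e-05), with a difference that was negative at 3 h and positive at 12 h.

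The calls of several of these differences depended on single libraries. Here and above, leaving out 1 library leaves 1 in its group and changes the shared spread, so a call can change while its value hardly moves. The E2F2 difference at 3 h, -1.25 with all libraries, was -1.28 and -1.26 without replicate 1 or 2 of NCI-H596 at 0 h. At 3 h, E2F2 was not called without replicate 1 of A549 at 0 h, either A549 library at 3 h, either NCI-H596 library at 0 h or replicate 1 of NCI-H596 at 3 h (adjusted p from 0.0541 to 0.231), nor by DESeq2 (0.0745). E2F8 at 3 h was lost without replicate 1 of A549 at 0 h or replicate 2 at 3 h (0.0565 and 0.0748). Without either 12 h library of NCI-H596, 8 members were called at 3 h in place of 4, and the share of all genes rose alike to 26.8% and 26.4%. At 6 h, the E2F7 difference was 0.46 without replicate 2 of A549 at 0 h, and was not called without it or without replicate 2 of A549 at 6 h, replicate 1 of NCI-H596 at 0 h or replicate 1 of NCI-H596 at 6 h (0.0575 to 0.109). The E2F4 difference at 12 h was lost without either A549 library at 12 h or replicate 2 of NCI-H596 at 0 h (0.0571 to 0.0797).

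An additive model, with the line and a time effect shared by both lines, has the formula of the study, which fitted it with DESeq2. Fitted here with edgeR to these 2 lines, it called 6 members, where 30.6% of genes were called. These were E2F2 (adjusted p = 0.000893) and E2F8 (0.0155), with a negative mean time effect, and E2F3 (0.00444), E2F4 (0.00571), E2F6 (0.00901) and RB1 (0.0165), with a positive one. E2F1 (0.621), E2F5 (0.785) and RBL1 (0.281) were not called, and E2F7 was at 0.0503. The response of each of these genes differed between the lines over all times, as did that of every called member but E2F3. DESeq2 called 7 members (36.5% of genes), E2F7 among them (0.0145). E2F7 was also called with DESeq2's size factors (0.0394), without a filter (0.0029) and with at least 10 counts in every library (0.0382), and RBL1 without a filter (0.0309). E2F8 was lost without either 0 h library of NCI-H596 (0.0764 and 0.0948) and RB1 without replicate 1 of NCI-H596 at 12 h (0.0504). E2F7 was called without any 1 of 5 libraries (0.00394 to 0.0469), namely replicate 2 of A549 at 0, 6 or 12 h, replicate 1 of NCI-H596 at 6 h and replicate 2 at 12 h.

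The partners of these proteins were read in the same fit. RBL2, the third pocket protein, fell in both lines, from 43.6 and 34.8 CPM at 0 h to 22.1 and 24.0 at 12 h in A549 and from 63.7 and 63.0 to 42.3 and 33.6 in NCI-H596. Its mean log2 fold change over the 3 times was -0.58 ± 0.10 in A549 and -0.64 ± 0.09 in NCI-H596, with no called difference between the lines (adjusted p = 0.697). Exons of RBL2 overlap genes of the opposite strand over 16.4% of their length. TFDP2, a DP subunit that pairs with E2F1 to E2F6, fell from 96.7 and 88.3 CPM at 0 h to 30.7 and 33.1 at 6 h in NCI-H596 (-1.53 ± 0.09) and from 30.2 and 28.7 to 18.4 and 18.0 in A549 (-0.69 ± 0.10), and the response differed (adjusted p = 0.000809). The other main DP subunit, TFDP1, rose in NCI-H596 at 6 h (0.41 ± 0.07) and 12 h (0.32 ± 0.07) and was lower at 6 h in A549 (-0.25 ± 0.08). TFDP3 had 0 counts in all 16 libraries.

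Among the 18 G1 cyclins, CDKs and CDK inhibitors, which set the phosphorylation of the pocket proteins, 7 were called over all times in A549 (40.3% of all genes) and 16 in NCI-H596 (54.1%). That test has no direction, and the mean change of the called genes was positive for 1 and negative for 6 in A549 and positive for 9 and negative for 7 in NCI-H596. CCND1, the cyclin partner of CDK4 and CDK6, rose in NCI-H596 by 1.15 ± 0.09 on average over the 3 times, and CDKN2C, an inhibitor of CDK4 and CDK6, fell by 1.28 ± 0.10 on the log2 scale. In A549, CDK6 (-0.67 ± 0.08) and CKS1B (-0.48 ± 0.12), a CDK subunit, fell most. Of the 11 genes of the E2F6 Polycomb complex, 7 were called over all times in A549 (40.3% of all genes), 3 of them with a positive mean change. In NCI-H596, 6 were called, near the share over all genes (54.1%), all with a positive mean change. By the mean change itself, 3 were higher and 2 lower in A549 and 4 higher in NCI-H596. The share of all genes called by the mean change was not computed, so these counts have nothing to be set against. RYBP, a subunit of that complex, rose by 1.07 ± 0.07 in A549, and the ubiquitin ligase RNF2 rose by 0.35 ± 0.10 in A549 and 0.64 ± 0.09 in NCI-H596, where WDR5 rose by 0.51 ± 0.08. Of the 7 genes of the MuvB core with B-MYB and FOXM1, 4 were called over all times in A549 (40.3% of all genes), 1 with a positive mean change. In NCI-H596, 5 were called (54.1% of all genes), all with a negative mean change. FOXM1, an activator of mitotic genes, fell by 1.01 ± 0.10 in A549 and by 0.61 ± 0.08 in NCI-H596. LIN52 rose by 0.43 ± 0.12 in A549 and LIN9 fell by 0.63 ± 0.13 in NCI-H596, both subunits of the MuvB core. MYBL2 (B-MYB), which lay under the level required of named genes in A549 and is given after its values were seen, fell there by 0.84 ± 0.16 on average (adjusted p = 0.000817), against -0.25 ± 0.08 in NCI-H596 (response difference over all times, adjusted p = 0.00115). The median of the mean log2 fold change was -0.11 in A549 and 0.08 in NCI-H596 for the cyclin list, 0.03 and 0.25 for the E2F6 complex and -0.36 and -0.37 for the MuvB list, against -0.05 over all genes in each line.

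Genes known to carry E2F sites and to act at the G1/S transition parted between the lines with time. Of 50 such genes, 1 was higher and 37 lower at 12 h in A549 (median log2 fold change -0.74, against 0.00 over all genes), and 10 higher and 6 lower in NCI-H596 (median 0.02, against -0.02), where 35.1% and 38.3% of all genes were called. At 3 h (17.4% and 31.7% of all genes), 1 was higher and 7 lower in A549 and 3 higher and 19 lower in NCI-H596, and at 6 h (34.2% and 44.1%) the counts were 1 and 32 in A549 and 6 and 27 in NCI-H596. The response differed for 40 of the 50 over all times (37.6% of all genes). At 12 h, 37 differences were called (24.0% of all genes), all with the higher value in NCI-H596 (median 0.82, against 0.01). RRM2, a ribonucleotide reductase subunit, fell by 1.17 ± 0.11 on average in A549. In NCI-H596, BRCA1, a DNA repair factor, fell by 0.94 ± 0.13 and the primase subunit PRIM1 by 0.74 ± 0.16. Before HGF, 48 of the 50 were higher in NCI-H596 and 2 lower (median 1.72, against 0.02, with 80.2% of all genes called).

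Genes of G2/M with CHR elements, which the MuvB complexes bind, fell in both lines. All 30 were called over all times in each line, where 40.3% of all genes were called in A549 and 54.1% in NCI-H596. By the mean change, 29 were lower in A549 and 30 in NCI-H596, and the share of all genes called by it was not computed. The median of the mean log2 fold change was -1.09 in A549 and -0.83 in NCI-H596, against -0.05 over all genes in each line. In A549 the median went from -0.40 at 3 h to -1.03 at 6 h and -1.76 at 12 h, whereas it was -0.98, -0.87 and -0.78 in NCI-H596. At 3 h the response of 14 was lower in NCI-H596 and of none higher (17.4% of all genes called), and at 12 h that of 22 was higher and of none lower (24.0%). The mitotic kinase PLK1 fell by 1.85 ± 0.12 and the proliferation marker MKI67 by 1.59 ± 0.14 in A549, and the phosphatase CDC25C by 1.75 ± 0.17 and the kinesin KIF20A by 1.54 ± 0.07 in NCI-H596. These lists were written by hand, and CCNE1, CCNE2, CDC25A and TFDP1 each stand in more than 1 of them.

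**Figure D4:**
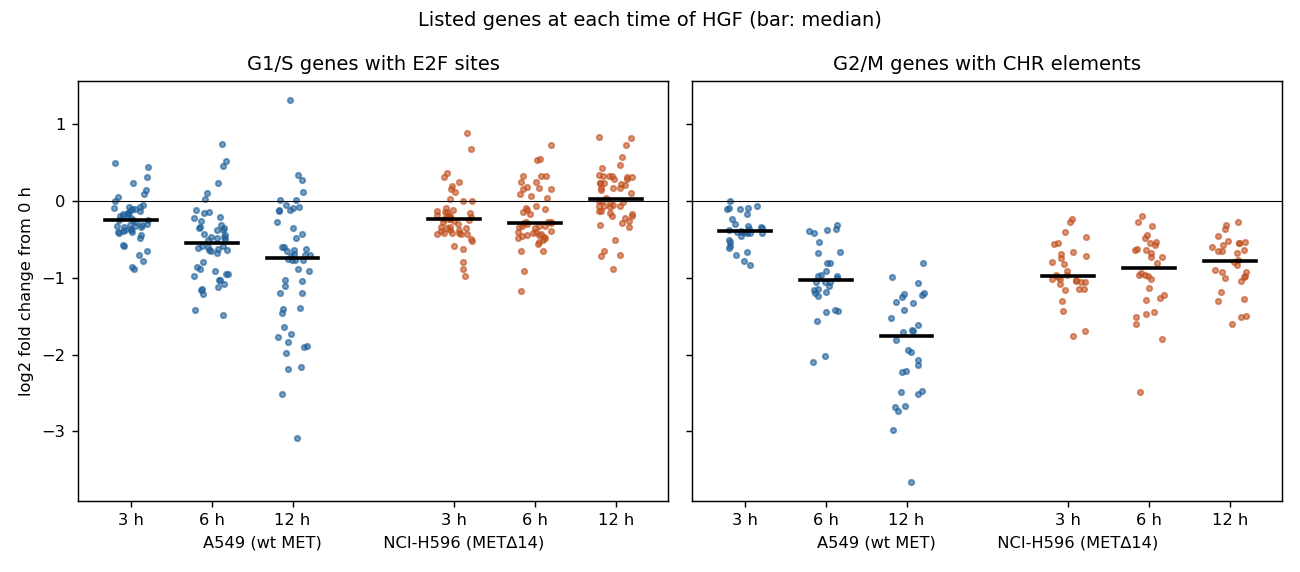
Log2 fold change from 0 h of the 50 G1/S genes (left) and the 30 G2/M genes (right) at 3, 6 and 12 h in A549 (blue) and NCI-H596 (orange); each point is a gene and each bar the median. In A549 the medians go down to -0.74 and -1.76 at 12 h, while in NCI-H596 at 12 h they are 0.02 and -0.78.

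As a description over the 8 group means, centred within each line, the time courses of E2F2 and E2F8 were most alike among the members (Pearson r = 0.91), followed by E2F3 and E2F7 (0.89), E2F2 and RBL1 (0.87) and E2F1 and RBL1 (0.84). E2F2 and E2F3 ran opposite to each other (-0.89). All points come from the same 16 libraries, and 2 of the 8 are the 0 h groups to which the changes refer. Among genes whose log2 CPM averaged 3 or more, the time course most like that of E2F1 was that of PLBD2 (0.991), then RABEP2 (0.988) and ARVCF (0.987). For E2F2 these were AP1G2, ARMC1 and INVS (0.976 to 0.984), for E2F3 VPS37A, PPP1R18 and PTBP3 (0.99 to 0.991), and for E2F4 B4GALT3, SF3B4 and IMP4 (0.992 to 0.996). E2F5 was most like TWNK, CTBP2 and DNAAF2 (0.983 to 0.99), E2F6 most like COQ10B (0.985) and BAG5 (0.983), and E2F7 most like DDX24, NT5DC3 and URB2 (0.966 to 0.988). For E2F8 the genes were PTPRA, ZNF687 and CEP76 (0.949 to 0.976), for RB1 CAND1, AKAP8L and CLDN15 (0.966 to 0.974), and for RBL1 CDK16, CCDC57 and PLCB4 (0.963 to 0.973). With Spearman's correlation at most 2 of a member's 3 genes stayed the same, and for 6 of the 10 members none did.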

How the data were processed

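RNA-seq of 16 libraries (2 lines, 4 times of HGF, 2 replicates) was used. Adapters were trimmed and reads mapped to hg38 with STAR (2.5.0 in the submitters' processing notes, which also name RSEM 1.3.2 without its role), and the authors deposited whole-number counts per gene without normalization. Columns of A549 bear a slightly different line name and were matched by the rest of the name. The annotation and the use of strand are not given in the sources used here.

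Counts were scaled by TMM and fitted with edgeR 4.0.16 (quasi-likelihood, robust, R 4.3.3), with 1 coefficient per group over all libraries. Genes passed filterByExpr (minimum count 10, total 15), and Benjamini-Hochberg adjusted p-values under 0.05 were called. Errors of log2 values are SEs, and p-values rest on the spread between replicates. The spread of each gene was estimated over all 16 libraries of both lines. A group whose replicates differ widely, such as NCI-H596 at 12 h, therefore enters the tests of both lines. CPM uses TMM-scaled totals. Limits from 3 counts use raw totals and cover counting error only. Gene lengths came from the GENCODE annotation of hg38, promoters from RefSeq. The scripts were tested on simulated data, in which a gene had the same dispersion in all groups, so an unequal spread between groups was not covered.

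The members and lists were chosen with earlier results of these data known. Named were all members and partners, in each list up to 2 genes per line with the largest absolute mean change over the 3 times among those called over all times, with 1 sign at all times and a log2 CPM of 3 or more on average over the line, and per member the 3 most similar genes. Some genes that this rule names are not reported here. Marker genes that this rule also names were KRT8 (mean log2 change -0.44) and MET (0.20) in A549, and KRT18 (0.65), EPCAM (-0.43), KRT6A (1.07), TP63 (-0.61), COL1A1 (-0.58) and MTAP (1.04) in NCI-H596.

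Alternatives were DESeq2 1.42.0, its size factors in edgeR, no filter, at least 10 counts in every library, a replicate block, each line alone, each library left out, a minimum absolute log2 fold change of 1, exon-union lengths, Spearman's correlation and a prior count of 0.5 in place of 2. Other libraries of the study were not analysed here.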

Additional observations from a re-analysis of the deposited data

Results flagged for a closer look

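For 9 members the response over the 3 times differed between A549 and NCI-H596 by edgeR's quasi-likelihood F test, adjusted by Benjamini-Hochberg, where 37.6% of all genes did. The adjusted p-values were 8.6e-05 for RBL1, 0.000618 for E2F1, 0.000637 for E2F5, 0.000662 for E2F4, 0.00612 for E2F2, 0.00874 for RB1, 0.0122 for E2F6, 0.0308 for E2F8 and 0.0474 for E2F7. E2F1 fell in A549 from 1.66 and 2.12 CPM at 0 h to 0.286 and 0.336 CPM at 12 h, the latter from 6 and 5 reads. In NCI-H596 it had 70.8 and 78.1 CPM at 0 h and 95.0 and 77.3 CPM at 12 h (log2 fold change 0.21, not called). E2F5 had log2 fold changes of -0.36 and -0.41 in A549 at 3 and 6 h, neither called, against 0.97 and 0.88 in NCI-H596. The calls of RBL1, E2F1, E2F4, E2F5 and RB1 remained without any 1 library. E2F2 was lost without replicate 1 of A549 at 3 h (0.0631), and E2F6 without replicate 1 of A549 at 12 h (0.052) or replicate 2 of NCI-H596 at 0 h (0.0503). E2F8 was lost without any 1 of 6 libraries, all at 0 or 3 h (0.0514 to 0.153), and by DESeq2 (0.111). E2F7 was lost without any 1 of 12 libraries (0.0575 to 0.199), the 4 others being replicate 1 of A549 at 0 h, replicate 2 of A549 at 12 h and the 12 h libraries of NCI-H596, with the replicate block (0.0565) and with at least 10 counts in every library (0.0607).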

How the results depend on the processing

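Requiring an absolute log2 fold change of at least 1 left 0, 2 and 2 members called at 3, 6 and 12 h in A549 (2 over all times) and 2, 3 and 0 in NCI-H596 (3 over all times), where 2.58%, 7.09%, 7.27% (10.2%), 7.31%, 11.8% and 9.01% (16%) of all genes were left. It left 0 in each step between neighbouring times (0.451% to 2.82% of genes), 1 at 6 h, 1 at 12 h and 4 over all times in the difference between the lines (11.1%, 7.81% and 14.8%), and 1 in the additive model (4.28%). In the difference between the lines at 3 h, it left E2F8 (-1.56), E2F5 (1.33) and E2F2 (-1.25), and the share of all genes left there is not reported here. From 6 to 12 h in A549, 2 members were called with DESeq2's size factors, with DESeq2 and without a filter, and from 3 to 6 h 2 when each line was fitted alone. With at least 10 counts in every library, which leaves out E2F1, E2F2 and E2F8, 5 members were called at 6 h in NCI-H596 and 5 in the difference over all times. Without single libraries, the members called ranged in A549 from 1 to 4 at 3 h, 3 to 8 at 6 h, 4 to 7 at 12 h and 0 to 2 in each step, in NCI-H596 from 8 to 9 at 3 h, 7 to 9 at 6 h, 5 to 7 at 12 h, 0 to 1 from 3 to 6 h and 2 to 7 from 6 to 12 h, and in the difference at 3 h from 3 to 8. The lowest counts came without replicate 1 of A549 at 0 h (1 at 3 h, 3 at 6 h, with 9.9% and 22.6% of genes), replicate 1 of A549 at 6 h (3 at 6 h, 21.7%) and replicate 2 of NCI-H596 at 6 h (2 from 6 to 12 h, 5.52%). Values that turned were uncalled: without single libraries they ranged in A549 at 3 h from -0.90 to 0.18 (E2F1), -0.087 to 0.58 (E2F8) and -0.031 to 0.24 (RBL1), at 6 h from -0.27 to 0.21 (E2F7), in NCI-H596 at 12 h from -0.24 to 0.11 (E2F6) and from -0.12 to 0.14 (RBL1), and between the lines at 0 h from -0.087 to 0.18 (E2F3). Steps and single-time differences of single members were recomputed for called members only.

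Over all genes, calls from 3 to 6 h in A549 went from 467 to 860 without a filter and 951 with the line alone, from 6 to 12 h in A549 from 1743 to 2801, and in NCI-H596 with the line alone from 1472 to 695 (3 to 6 h) and from 2806 to 1422 (6 to 12 h). Without single libraries these 4 counts ranged from 96 to 1264, 686 to 3182, 459 to 3100 and 852 to 6434, in the order A549 3 to 6 h, A549 6 to 12 h, NCI-H596 3 to 6 h and NCI-H596 6 to 12 h. No pairing by replicate number was seen (correlations of deviations from -0.16 to 0.11 over 28 pairs of groups). These correlations cannot show that samples of the same number were handled apart. With the replicate block, only the calls of E2F4 at 3 h in A549 (adjusted p = 0.0619) and of E2F7 in the difference over all times (0.0565) were lost among the members. E2F6 at 6 h in NCI-H596 was lost with DESeq2 (0.05), without a filter (0.0539), with at least 10 counts in every library (0.065) and with the line alone (0.096). E2F4 over all times in A549 was gained under 4 settings (0.00973 to 0.0326) and without any 1 of 7 libraries (0.0059 to 0.0496). Without a filter, E2F4 was lost at 3 h (0.101) and 6 h (0.0567) in A549 and in the difference at 12 h (0.0617). Gained without a filter were E2F1 at 3 h (0.0286) and 6 h (0.0489) in NCI-H596, and E2F3 at 3 h (0.0437) in A549. With the line alone, E2F3 at 3 h (0.032) and E2F5 at 6 h (0.0327) were gained in A549. E2F1, E2F2 and E2F8 had at most 30 reads in any A549 library.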
